A study of Mus musculus with 12 samples.

Results

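Thrsp, Rgs16, Slc16a1, Cldn1 and Slc30a10 are 5 liver genes whose levels divided individual livers of mice on a high-fat diet into sets that cut across genotype. They are 5 of the 19937 genes measured, and each is read by 1 probe set of the 35557 on the array. They were chosen by their values on the 6 high-fat arrays. There, control replicate 3 and SIRT3KO replicates 2 and 3, called the first set below, differed from control replicates 1 and 2 and SIRT3KO replicate 1, called the second set. These sets are not groups of the study. The values on the high-fat arrays are therefore given array by array as a description, with no average over a set and no test.

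The livers came from 129Sv mice, 12 weeks old, that had all gone without food for 24 h. The mice were controls, labelled SIRT3WT, or labelled SIRT3KO, for a knockout of the mitochondrial deacetylase SIRT3. They ate a standard diet or, from weaning, a Western diet with 42% fat, and each of the 4 groups of genotype and diet has 3 arrays of whole-liver total RNA. The study set out to find expression differences that follow from diet. Sex, the hour of killing and the tissue in which SIRT3 was deleted are not given in the sources used here. Nothing in the labels states outright that replicates are separate animals, so a p-value measures the spread between these samples. All values are log2 expression, where a difference of 1 is a doubling, and values of different genes are not set against each other.

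These genes serve different parts of liver physiology. Thrsp encodes a small nuclear protein of tissues that make fat, which promotes fatty acid synthesis and responds to thyroid hormone and carbohydrate. Rgs16 encodes a GTPase-activating protein that shortens signalling by G protein-coupled receptors. Slc16a1 encodes the carrier MCT1, which moves lactate, pyruvate and ketone bodies across the plasma membrane with a proton. Cldn1 encodes a claudin, a membrane protein of the tight junctions that seal bile canaliculi, and Slc30a10 encodes a manganese exporter through which the liver passes manganese into bile. Arntl encodes BMAL1, the partner of CLOCK in the activator that drives the circadian clock from E-box motifs. Dbp encodes a transcription factor whose own gene is driven by that activator and which acts on D-box motifs, so the transcripts of Arntl and Dbp peak at different hours in mouse liver.

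On the GRCm38.p6 assembly, RefSeq places Thrsp at chr7:97412933-97417550 on the minus strand, Rgs16 at chr1:153740353-153745468 on the plus strand and Slc16a1 at chr3:104638664-104658462 on the plus strand. Cldn1 lies at chr16:26356645-26371839 on the minus strand and Slc30a10 at chr1:185454848-185468762 on the plus strand. The 250 bases upstream of the start were searched on both strands for the E-box CACGTG, the D-box TTANGTAA, the ROR element TAGGTCA, at which Arntl itself is regulated, and the CCAAT box. Of 32851 RefSeq promoter windows of this length, 6.02% held the E-box, 2.06% the D-box, 2.23% the ROR element and 33.8% the CCAAT box. Slc16a1 was the only one of the 5 genes with an E-box, at positions -200 to -195 from its start. Thrsp had 2 CCAAT boxes, Rgs16 and Slc30a10 had 1 each, and Cldn1 had no match to any of these motifs. A match is a description of the letters and not a bound site. The 3 windows below, written 5′ to 3′ in the direction of the gene with motif matches in capitals, belong to those 3 of the 5 genes with the widest separation between the sets described next.
Thrsp, chr7:97417551-97417800, minus strand: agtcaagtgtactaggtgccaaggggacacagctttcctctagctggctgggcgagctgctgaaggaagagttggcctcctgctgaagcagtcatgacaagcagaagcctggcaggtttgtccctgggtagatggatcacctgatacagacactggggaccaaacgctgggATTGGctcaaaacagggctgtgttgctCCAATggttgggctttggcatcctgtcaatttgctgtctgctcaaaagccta
Rgs16, chr1:153740103-153740352, plus strand: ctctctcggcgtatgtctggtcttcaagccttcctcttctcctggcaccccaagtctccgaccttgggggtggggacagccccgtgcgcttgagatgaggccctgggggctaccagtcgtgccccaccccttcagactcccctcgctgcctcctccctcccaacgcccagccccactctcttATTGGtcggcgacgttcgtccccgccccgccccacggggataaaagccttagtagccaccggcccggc
Slc16a1, chr3:104638414-104638663, plus strand: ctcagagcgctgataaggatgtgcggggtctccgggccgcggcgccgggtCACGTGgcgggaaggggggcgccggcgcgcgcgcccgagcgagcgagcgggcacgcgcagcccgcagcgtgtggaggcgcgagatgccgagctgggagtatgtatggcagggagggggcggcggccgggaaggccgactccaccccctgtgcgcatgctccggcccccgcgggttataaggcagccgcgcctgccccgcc

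Thrsp was high on the first set and stayed near its standard-diet level on the second. On the high-fat diet it read 7.17, 7.44 and 9.05 in control replicates 1, 2 and 3, and 7.46, 9.81 and 10.29 in SIRT3KO replicates 1, 2 and 3. Its standard-diet values were 7.02, 7.01 and 6.93 in the controls and 7.24, 7.22 and 8.02 in SIRT3KO. All 3 livers of the first set lay above every standard-diet liver, and all 3 of the second set lay within the standard-diet range. The top of that range was SIRT3KO replicate 3 alone. The lowest value of the first set stood 1.59 above the highest of the second, which is 3.02-fold. The whole high-fat range was 3.12, or 8.67-fold, against 1.10 on the standard diet.

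Rgs16 gave the same order of sets with the widest separation of any of the 9969 genes at or above the median level of all genes, which is 6.70. Its high-fat values were 8.10, 9.02 and 11.12 in the controls and 8.88, 11.00 and 10.68 in SIRT3KO. On the standard diet it read 8.77, 7.88 and 8.17 in the controls and 8.68, 9.93 and 8.37 in SIRT3KO. The sets were 1.66 apart, or 3.15-fold, and Thrsp ranked next. Within the first set the order differed between these genes, since control replicate 3 was the highest for Rgs16 and the lowest for Thrsp. Rgs16 also varied on the standard diet, where SIRT3KO replicate 2 stood above the other 5 arrays and the range was 2.05. Its spread within standard-diet groups was at the 99.5th percentile of the 9969 genes at or above the median level, and that of Thrsp was at the 96.9th.

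**Figure D1:**
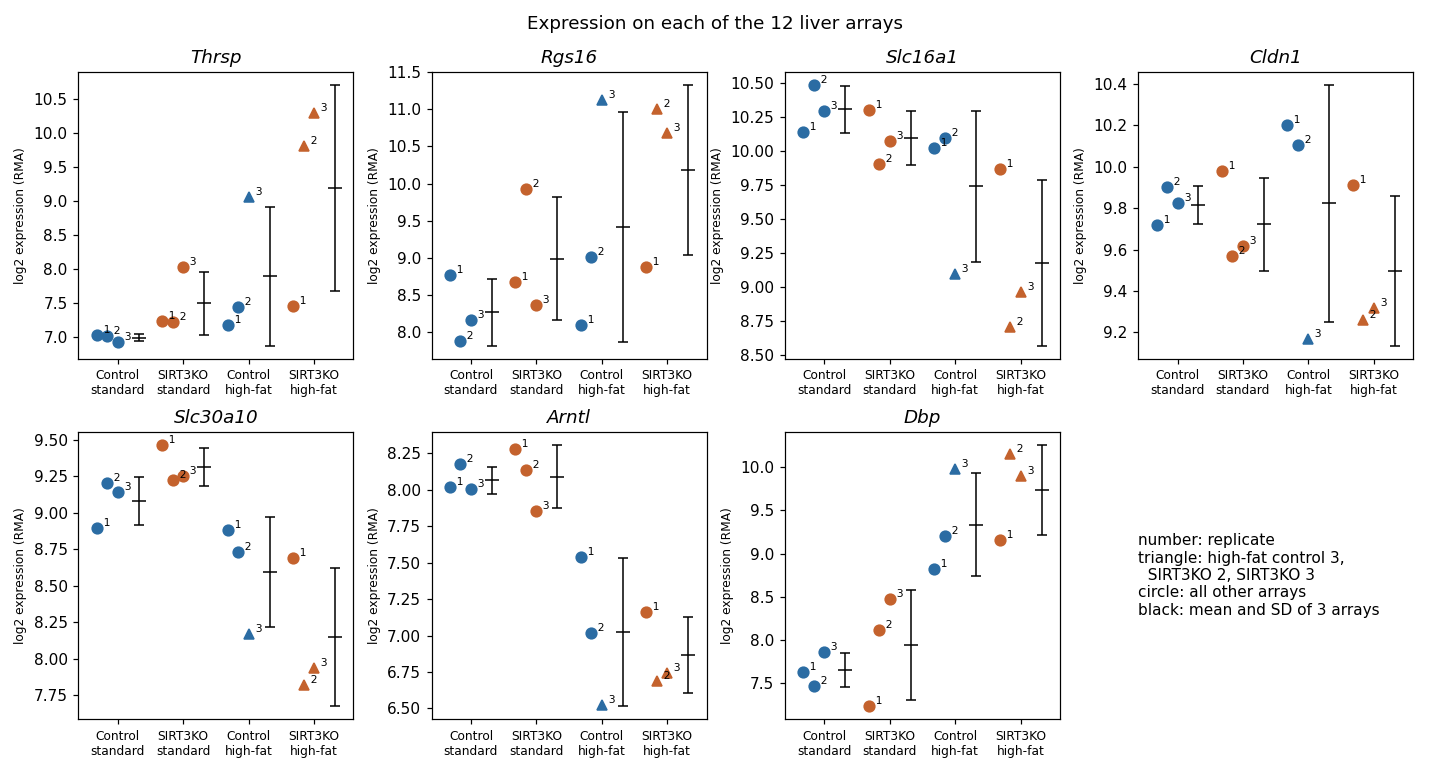
Log2 expression (vertical axis, a separate scale for each gene) of the 5 genes, Arntl and Dbp on each of the 12 arrays, by group, with replicate numbers beside the points and the mean ± SD of 3 arrays in black. Triangles mark the first set, which for Thrsp sits between 9.05 and 10.29, above all other arrays, and for Slc16a1 between 8.70 and 9.10, below all other arrays.

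Slc16a1 ran the other way, low on the first set. Its high-fat values were 10.02, 10.10 and 9.10 in the controls and 9.87, 8.70 and 8.96 in SIRT3KO. On the standard diet they were 10.14, 10.49 and 10.30 in the controls and 10.30, 9.91 and 10.08 in SIRT3KO. The sets were 0.77 apart, or 1.70-fold. All 3 livers of the first set lay below the standard-diet range, while those of the second set lay within it, apart from SIRT3KO replicate 1, just under the lowest standard-diet liver. The high-fat range was 1.39 and the standard-diet range 0.58.

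Cldn1 had the narrowest standard-diet range of the 5 genes, 0.41, and its high-fat livers left that range on both sides. It read 10.20, 10.10 and 9.17 in the high-fat controls and 9.91, 9.26 and 9.32 in high-fat SIRT3KO. The standard-diet values were 9.72, 9.90 and 9.83 in the controls and 9.98, 9.57 and 9.62 in SIRT3KO. The first set was below all standard-diet livers, while both control livers of the second set were above them and SIRT3KO replicate 1 was within their range. The sets were 0.60 apart, or 1.51-fold.

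Slc30a10 was below its standard-diet range in all 6 high-fat livers, and lowest in the first set. Its high-fat values were 8.88, 8.73 and 8.17 in the controls and 8.69, 7.82 and 7.94 in SIRT3KO. Standard-diet values were 8.89, 9.21 and 9.14 in the controls and 9.46, 9.22 and 9.25 in SIRT3KO. The sets were 0.52 apart, or 1.43-fold. High-fat control replicate 1, at 8.88, differed from the lowest standard-diet liver, at 8.89, by far less than the spread within a group.

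All 5 genes were apart between the sets, 2 upward and 3 downward. Of the 9969 genes at or above the median level, 6.78% were apart upward and 4.55% downward, 11.3% in all, and nothing is read from these shares because the same arrays chose the 5 genes. Separations of at least 0.5 were rarer, with 10 such genes upward (0.1%) and 7 downward (0.0702%), and all 5 genes are among them. Nor is anything read from their place there, since they were chosen by their separation. The upward genes with the widest separation after Rgs16 and Thrsp were Ciart, a repressor of the clock activator, at 1.06, and Zbtb16, a zinc-finger repressor induced by glucocorticoids, at 0.72. Upp2, a liver uridine phosphorylase, was at 0.70, Dbp at 0.69, the interleukin-6 receptor gene Il6ra at 0.68, the deadenylase gene Noct at 0.61, the clock repressor Bhlhe40 at 0.57 and the deubiquitinase gene Usp2 at 0.53. Downward, the growth regulator Myc was 0.81 apart, followed by Slc16a1, the cytokine-signal inhibitor Socs2 at 0.63, Cldn1, the steroid-metabolizing enzyme gene Hsd3b5 at 0.58, Slc30a10 and the stress gene Gadd45g at 0.51. Il22ra1 at 0.40, Abtb2 at 0.39 and the mitochondrial carrier gene Slc25a30 at 0.35 came next.

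The sequence of livers was not the same for each of these genes. Ciart read 6.90, 7.08 and 8.33 in the high-fat controls and 7.27, 9.71 and 9.00 in SIRT3KO, so that control replicate 3 was the lowest of the first set, as for Thrsp. Myc read 8.50, 8.65 and 7.64 in the controls and 9.11, 7.45 and 7.68 in SIRT3KO. The range of Myc was wider on the standard diet, 3.32, than on the high-fat diet, 1.66. For each of the 5 genes, which the high-fat arrays chose, it was wider on the high-fat diet. Over all genes the median high-fat range was 0.356.

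**Figure D2:**
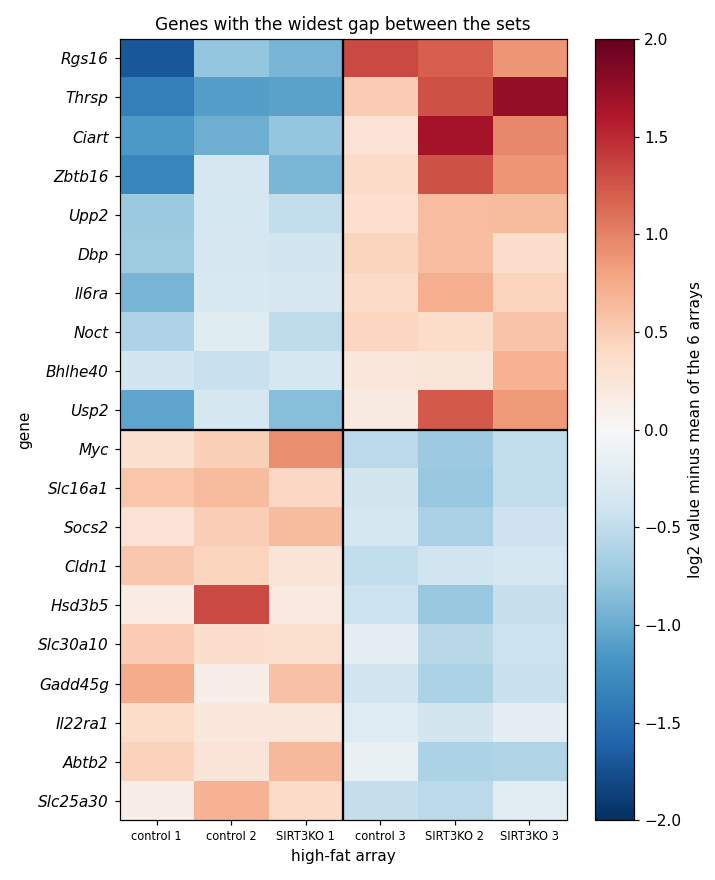
Log2 value minus the gene's mean over the 6 high-fat arrays (colour) for the 10 genes with the widest separation in each direction among genes at or above the median level (rows), by array (columns, with the second set on the left). The separations run from 1.66 for Rgs16 to 0.53 for Usp2 upward and from 0.81 for Myc to 0.35 for Slc25a30 downward, and colours within a set are uneven, as for control replicate 2 in Hsd3b5.

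Arntl and Dbp were apart between the same sets, in opposite directions. Dbp read 8.82, 9.21 and 9.98 in the high-fat controls and 9.15, 10.16 and 9.89 in SIRT3KO, all above its standard-diet range of 7.24 to 8.47. Arntl read 7.54, 7.01 and 6.52 in the high-fat controls and 7.16, 6.69 and 6.75 in SIRT3KO, all below its standard-diet range of 7.85 to 8.28. The first set was thus highest for Dbp and lowest for Arntl, with the sets 0.69 and 0.27 apart. The second set lay between the first set and the standard-diet livers for both clock genes. Thrsp and Rgs16 did not show this intermediate step, since their second-set livers were within the standard-diet range. For each, that contrast rests on 1 standard-diet array, SIRT3KO replicate 3 for Thrsp (8.02) and SIRT3KO replicate 2 for Rgs16 (9.93). The next highest standard-diet values were 7.24 and 8.77. High-fat control replicate 2 and SIRT3KO replicate 1 exceeded these, at 7.44 and 7.46 for Thrsp and 9.02 and 8.88 for Rgs16. Of the lowered genes only Slc30a10 showed the intermediate step in all 3.

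Likeness between genes was measured as Pearson r over the 12 arrays after each diet's mean was subtracted, and it is a description, because the high-fat arrays that chose the genes dominate it. With Dbp, r was 0.80 for Thrsp, 0.74 for Rgs16, -0.84 for Slc16a1, -0.89 for Cldn1 and -0.73 for Slc30a10. With Arntl it was -0.77, -0.75, 0.76, 0.88 and 0.79 in the same order. Of the 5, Cldn1 followed Arntl and opposed Dbp most closely. Slc16a1 and Cldn1 were closest to each other, at 0.95, and Thrsp and Rgs16 were less close, at 0.77.

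**Figure D3:**
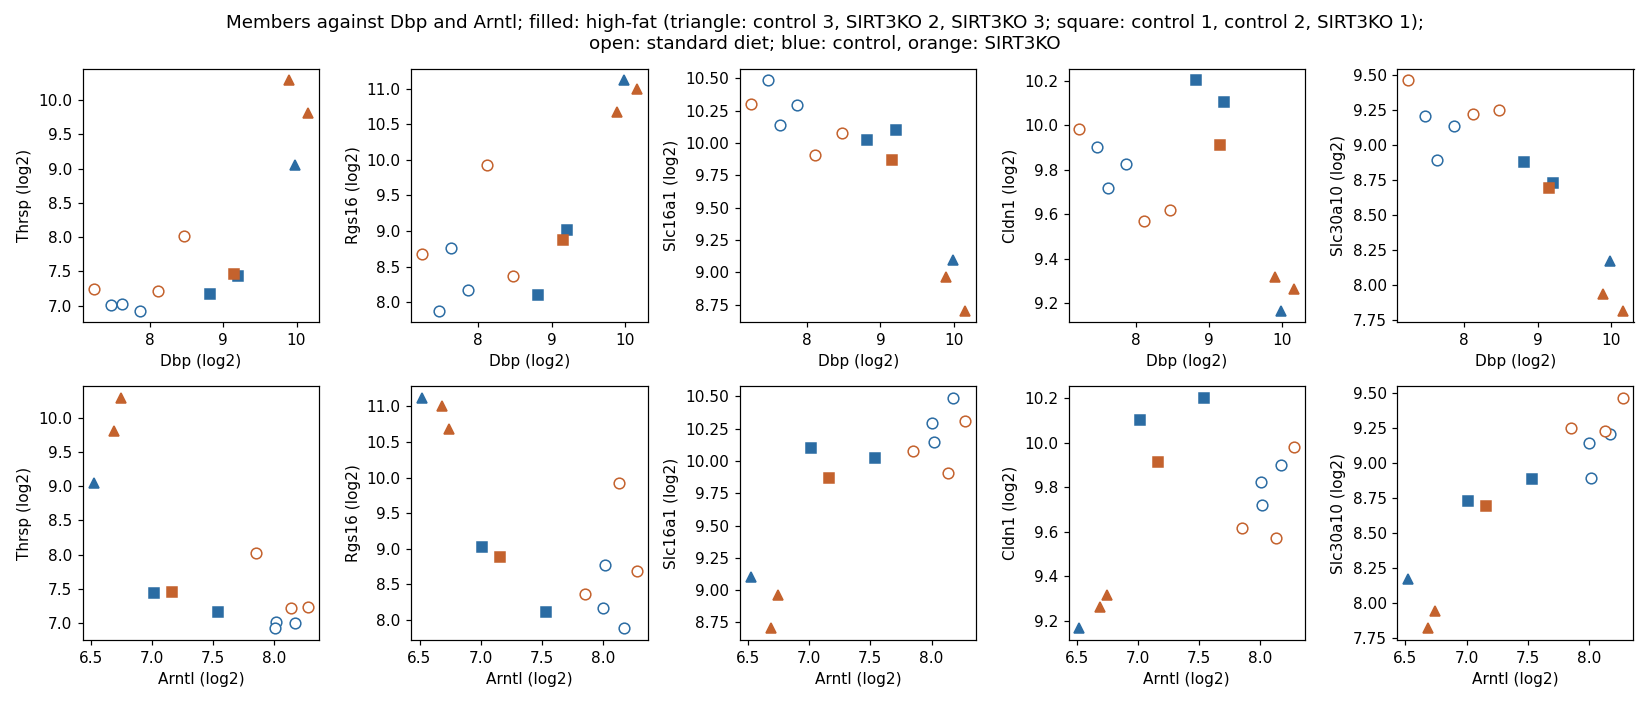
Log2 level of each of the 5 genes (vertical axes) against the log2 level of Dbp (top row) or Arntl (bottom row) on the same array, with filled marks for high-fat and open circles for standard-diet arrays. The high-fat triangles (control 3, SIRT3KO 2 and SIRT3KO 3) stand apart from the squares in each panel, at Dbp values of 9.89 to 10.16 and Arntl values of 6.52 to 6.75.

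The genes most like Thrsp over these 12 arrays, among genes at or above the median level, were the glutamine transporter gene Slc38a3 (r = 0.96), the cell-cycle kinase and clock target Wee1 (0.96) and Mettl7a1 (0.93). Rcan1, an inhibitor of calcineurin, Parp16 and Syngr1 were most like Rgs16, at 0.92, 0.92 and 0.90, and Crot, the peroxisomal carnitine octanoyltransferase, and the bicarbonate carrier gene Slc4a4 ran most against it, at -0.96 and -0.92. Cluh, which encodes a protein that binds mRNAs for mitochondrial proteins, was among the 3 most alike for Slc16a1 (0.93), Cldn1 (0.97) and Slc30a10 (0.90) and ran most against Thrsp (-0.91). Pde4d followed Slc16a1 at 0.92, Ypel2 followed Cldn1 at 0.93, and Rhou and Il4ra followed Slc30a10 at 0.91 and 0.89. Echs1, an enzyme of mitochondrial fatty acid oxidation, ran against Slc16a1 (-0.92), Cldn1 (-0.93) and Slc30a10 (-0.91). The peroxisomal membrane gene Pxmp2 ran against Slc16a1 at -0.93, Gatd3a against Cldn1 at -0.90 and the pyruvate dehydrogenase kinase gene Pdk2 against Slc30a10 at -0.94. Several of these moved far less than the 5 genes: the sets were 0.11 apart for Slc38a3, 0.17 for Cluh and 0.14 for Echs1.

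Of other genes of the pathways, the clock lists held the largest shares apart. Without the 5 genes, Arntl and Dbp, 5 of 14 core clock genes were apart (4 upward: Ciart, Bhlhe40, Per1 and Csnk1d by 0.01, and Clock downward by 0.07), and 7 of 18 clock output genes were apart, against 10.1% of all genes (4.42% upward and 5.67% downward). Upward among the outputs were Upp2, Usp2, Wee1 by 0.44, Tef by 0.21 and Tspan4 by 0.07, while Insig2 was downward by under 0.01 and Cys1 by 0.03. Separations of at least 0.5 were found for 2 of the 14 (Ciart and Bhlhe40) and 2 of the 18 (Upp2 and Usp2). Nothing is read from the share of any list. The sets came from these arrays, and the lists were chosen with earlier results known. The glucocorticoid response list had 3 of 18 apart, all upward: Zbtb16, Cebpb by 0.19 and Per1 by 0.16. None of 21 genes of the carbohydrate response was apart, although Thrsp is usually counted with them. In that list the widest high-fat ranges were 1.20 for G6pc, which encodes the catalytic subunit of glucose-6-phosphatase, and 0.82 for Txnip, the thioredoxin-interacting protein gene, each with overlapping sets.

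Of 21 fasting and insulin genes, 5 were apart (23.8%, against 10.1% of all genes), 3 upward and 2 downward. Pdk4, a kinase that spares pyruvate in fasting, was downward by 0.22 and the insulin receptor substrate gene Irs1 by 0.15. The transcription factor gene Foxo1 was upward by 0.15, Cpt1a by 0.04 and Foxo3 by 0.02. Mid1ip1, the relative of Thrsp, overlapped between the sets, with 7.87, 7.44 and 7.69 in the high-fat controls and 7.95, 7.96 and 8.31 in SIRT3KO. Relatives of the other genes were apart by less than the 5 genes themselves. Nothing is read from that, because the 5 genes were chosen for their separation on these arrays. Among 16 monocarboxylate transport genes 4 were apart (25.0%, against 10.1% of all genes), by at most 0.21, for Slc16a5. Among 21 tight-junction genes 1, Tjp3, was apart (4.76%), by 0.17 downward. Of 27 zinc and manganese transport genes 4 were apart (14.8%), downward by at most 0.15, for Slc39a4. The other RGS genes had 2 of 19 apart (10.5%), Rgs1 and Rgs8, each by 0.07.

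**Figure D4:**
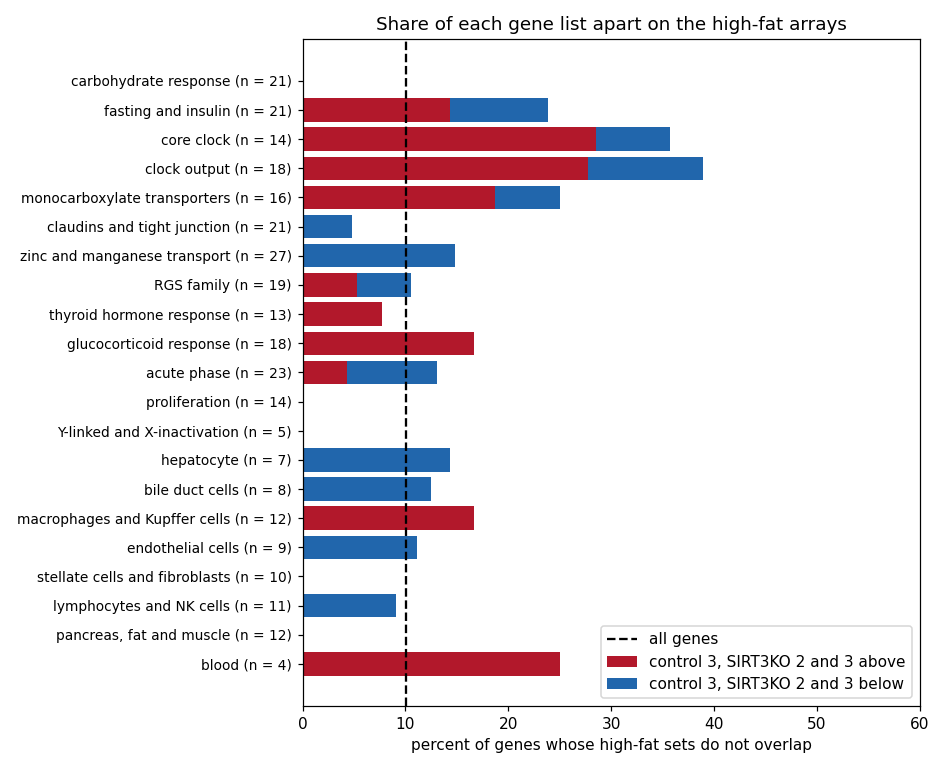
Percent of the genes of each list (horizontal axis, number measured in parentheses) whose high-fat sets do not overlap, in red where the first set is above and blue where it is below, with the 5 genes, Arntl and Dbp left out. The dashed line is the 10.1% found over all genes, and the bars for the core clock (5 of 14) and clock output (7 of 18) lists are the longest. Nothing is read from their lengths, because the same arrays defined the sets.

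The standard-diet arrays did not enter the choice of the genes, so genotype was tested there, with limma on these 6 arrays and adjustment over all genes. None of the 5 genes passed, nor did any of the 19937 genes, of which 9.35% had an unadjusted p under 0.05. Without SIRT3KO replicate 3 the fit called 45 genes and without control replicate 2 it called 2, none of them among these 5. Thrsp was 0.51 higher in SIRT3KO (SE 0.191, adjusted p = 0.527), with every SIRT3KO liver above every control, and 0.24 higher without SIRT3KO replicate 3. Slc30a10 was 0.23 higher (SE 0.105, adjusted p = 0.530), also without overlap, and 0.14 higher without control replicate 1. SIRT3KO lay wholly above control for 9.88% of all genes on this diet and wholly below for 4.52%. The differences were 0.72 for Rgs16 (SE 0.359, adjusted p = 0.547), -0.21 for Slc16a1 (SE 0.119, adjusted p = 0.566) and -0.09 for Cldn1 (SE 0.113, adjusted p = 0.776), with overlapping groups. Rgs16 was at 0.25 without SIRT3KO replicate 2, Slc16a1 at -0.12 without that array or control replicate 2, and Cldn1 ranged from -0.22 without SIRT3KO replicate 1 to -0.016 without SIRT3KO replicate 2.

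The same arrays bear on whether the genes vary together apart from the high-fat diet. Over the 6 standard-diet arrays, 21 relations among the 5 genes, Arntl and Dbp were computed with exact two-sided permutation tests, whose smallest p is 0.00139 for Pearson's r, and none passed Benjamini-Hochberg adjustment. The closest was Slc16a1 with Cldn1, with r = 0.88 (exact p = 0.0208, adjusted 0.233) and rho = 0.94 (exact p = 0.0167, adjusted 0.306). Without the 2 arrays farthest from the median of Slc16a1 r was 0.92, and within genotypes, after each genotype's mean was subtracted, it was 0.91. Dbp and Cldn1 gave r = -0.87 (exact p = 0.0292, adjusted 0.233) and rho = -0.89 (exact p = 0.0333, adjusted 0.306), with r = -0.79 without the 2 farthest arrays and -0.85 within genotypes.

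Rgs16 and Slc16a1 gave r = -0.84 (exact p = 0.0333, adjusted 0.233) and rho = -0.71 (exact p = 0.136, adjusted 0.476), but r was -0.12 without the 2 farthest arrays, on which the relation rests. Within genotypes it was -0.77. Arntl and Dbp gave r = -0.81 (exact p = 0.0514, adjusted 0.270) and rho = -0.83 (exact p = 0.0583, adjusted 0.306), with r = -0.11 without the 2 farthest arrays and -0.90 within genotypes. Thrsp and Rgs16, which were high on the same high-fat livers, gave r = 0.04 (exact p = 0.926, adjusted 0.958) and rho = 0.43 (exact p = 0.419, adjusted 0.801) on the standard diet, 0.66 without the 2 farthest arrays and -0.57 within genotypes.

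Group means show how the split enters the study's own groups. For Thrsp they ran from 6.99 (SD 0.0521, n = 3) in standard-diet controls through 7.49 (SD 0.459, n = 3) in standard-diet SIRT3KO and 7.89 (SD 1.02, n = 3) in high-fat controls to 9.19 (SD 1.52, n = 3) in high-fat SIRT3KO, and apart from the first step neighbours overlapped. Rgs16 had the same order, 8.27 (SD 0.451, n = 3), 8.99 (SD 0.824, n = 3), 9.41 (SD 1.55, n = 3) and 10.18 (SD 1.14, n = 3), with every neighbour overlapping. Slc16a1 was lowest in high-fat SIRT3KO, at 9.18 (SD 0.611, n = 3), then 9.74 (SD 0.556, n = 3) in high-fat controls, 10.10 (SD 0.200, n = 3) in standard-diet SIRT3KO and 10.31 (SD 0.172, n = 3) in standard-diet controls, again with overlap between neighbours in this order. For Thrsp, Rgs16 and Slc16a1 the middle step crosses both genotype and diet, and overlap between diets within a genotype is given below. The first set holds 2 of the 3 SIRT3KO livers and 1 of the 3 controls.

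Cldn1 means lay between 9.50 (SD 0.361, n = 3) in high-fat SIRT3KO and 9.82 (SD 0.572, n = 3) in high-fat controls, with 9.72 (SD 0.224, n = 3) and 9.81 (SD 0.0912, n = 3) in standard-diet SIRT3KO and controls, all overlapping. Slc30a10 was 8.15 (SD 0.473, n = 3) in high-fat SIRT3KO and 8.59 (SD 0.374, n = 3) in high-fat controls, which overlapped, and 9.08 (SD 0.166, n = 3) and 9.31 (SD 0.131, n = 3) in standard-diet controls and SIRT3KO, where neither step overlapped. In the limma fit over 12 arrays the SIRT3KO minus control difference on the high-fat diet was estimated at 1.30 for Thrsp (SE 0.575), 0.77 for Rgs16 (SE 0.652), -0.56 for Slc16a1 (SE 0.271), -0.33 for Cldn1 (SE 0.228) and -0.44 for Slc30a10 (SE 0.206). With 1 array left out these ranged from 0.75 (without SIRT3KO replicate 3) to 2.16 (without SIRT3KO replicate 1) for Thrsp and from 0.11 (without control replicate 1) to 1.62 (without control replicate 3) for Rgs16. For the lowered genes they ranged from -0.91 to -0.32 for Slc16a1, -0.66 to -0.14 for Cldn1 and -0.72 to -0.28 for Slc30a10. Genotypes overlapped for each of these, and no p is given because these arrays chose the genes. Over all genes this comparison called 0, while 2.86% had an unadjusted p under 0.05.

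Each comparison of diets may lie across separate normalization runs, since 335 probe sets lack values on all standard-diet arrays and arrays of different diets shared a median of 0 identical values, against 20 within the standard diet and 7 within the high-fat diet. High-fat minus standard differences in controls were 0.90 for Thrsp, 1.14 for Rgs16, -0.57 for Slc16a1, 0.01 for Cldn1 and -0.49 for Slc30a10, and in SIRT3KO 1.69, 1.19, -0.92, -0.23 and -1.16. Without high-fat control replicate 3 those in controls were 0.32, 0.29, -0.25, 0.34 and -0.27, and Cldn1 was at -0.18 without high-fat control replicate 1. Without high-fat SIRT3KO replicate 1 those in SIRT3KO were 2.56 for Thrsp, 1.84 for Rgs16 and -0.44 for Cldn1, and Rgs16 was at 0.78 without replicate 2. For Cldn1 the control mean averages livers on both sides of the standard-diet range. In both genotypes the SE was 0.575 for Thrsp, 0.652 for Rgs16, 0.271 for Slc16a1, 0.228 for Cldn1 and 0.206 for Slc30a10. The diets did not overlap for Slc16a1 and Slc30a10 in either genotype, nor for Thrsp in controls. They overlapped for Thrsp in SIRT3KO and for Rgs16 and Cldn1 in both. Nothing is read from this, because the high-fat arrays chose the genes. Medians of the diet difference over all genes were 0.04 in controls and -0.01 in SIRT3KO. Both diet comparisons were also read for the clock lists, as limma calls at an adjusted p under 0.05 over all genes, where 4.31% of all genes rose and 1.69% fell in controls and 2.45% and 2.66% in SIRT3KO.

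Of 15 core clock genes, Per3, Cry2 and Bhlhe41 rose and Arntl fell in controls (list median 0.25), and Per2 and Nr1d2 rose besides in SIRT3KO (list median 0.48). By limma, Arntl was estimated to fall by 1.04 in controls (SE 0.201) and by 1.22 in SIRT3KO (SE 0.201). No p is given for Arntl or Dbp, since both were named along with the 5 genes and the high-fat sets. Their calls here are descriptions. The 3 that rose in controls became 5 without standard-diet or high-fat SIRT3KO replicate 1, and the 5 in SIRT3KO became 3 without standard-diet SIRT3KO replicate 2 and 2 without high-fat SIRT3KO replicate 2 or 3. Of 19 clock output genes, Dbp, Tef and Wee1 rose in controls (list median 0.04), and in SIRT3KO these and Tspan4 rose and Insig2, which restrains sterol and fatty acid synthesis, fell (list median 0.30). Leaving out any 1 of the 6 control arrays left 1 of the 3 in controls, as did median centring and the limit to genes at or above the median level. In SIRT3KO 2 of the 4 were left without high-fat replicate 2 or 3, and the fall of Insig2 was lost without standard-diet replicate 2 or high-fat replicate 2 or 3, while 2 genes fell without standard-diet replicate 3.

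The arrays read as liver throughout. Hepatocyte genes were among the highest of all, with Alb, which encodes albumin, between 14.05 and 14.16 on the 12 arrays, and the mean of 7 hepatocyte genes stayed within 0.06 of its diet's mean on every array. Array medians were 6.34 to 6.47. Sirt3 was 8.83 to 8.95 in SIRT3KO against 8.97 to 9.13 in controls on the standard diet and 8.49 to 8.92 against 9.13 to 9.29 on the high-fat diet, so its signal was kept in the livers labelled SIRT3KO. The place of this probe set relative to the deleted part is not given in the sources used here, and it cannot check the genotype labels. In whole liver, fewer cells of a type and less RNA per cell cannot be told apart. Over the 9969 brighter genes, the second principal component of the high-fat arrays held 26.3% of the variance. It put the first set at 0.36 to 0.48 and the second at -0.48 to -0.28. The first component, with 41.8%, did not separate them. Nothing is read from these positions, because the same arrays defined the sets and the chosen genes are among those in the components.

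A liver of the first set, high-fat control replicate 3, also stood out in macrophage genes. Its 12 macrophage and Kupffer cell genes lay on average 0.49 above the mean of the high-fat arrays, while the other 5 arrays lay between -0.13 and -0.04, and 12 of the 12 genes were highest there. Its stellate cell and lymphocyte genes were on average 0.19 and 0.13 above the mean, but members of these lists differed. Col1a1 (8.12) and Ptprc (8.09) were highest there. Lrat read 6.95 there against 7.43 in control replicate 2, and Cd8a 6.19 against 6.57 in SIRT3KO replicate 1. SIRT3KO replicates 2 and 3, the other livers of the first set, were at -0.04 and -0.13 in the macrophage genes. The part of the macrophage difference in the values of control replicate 3 for the 5 genes was not tested. On the standard diet, SIRT3KO replicate 1 was 1.13 above the mean in 23 acute-phase genes, and SIRT3KO replicate 2, the high liver for Rgs16, was 0.53 above it in 12 genes of pancreas, fat and muscle. The widest standard-diet ranges of that list were in the muscle genes Acta1 (2.86), Ckm (1.93), Myh4 (1.37) and Mylpf (0.88). Pancreas genes varied by at most 0.58 (Cela2a) and fat genes by at most 0.43 (Plin1). The mean of 5 Y-linked and X-inactivation genes was 0.60 below the diet mean in SIRT3KO replicate 1 and 0.25 above it in SIRT3KO replicate 3. That mean pools Xist, which varied by 0.19 on the standard diet, with Y-linked genes. Those varied by 1.60 (Uty), 1.59 (Eif2s3y), 0.96 (Kdm5d) and 0.43 (Usp9y). The part of these list differences in the standard-diet values of the 5 genes was not tested.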

How the data were processed

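The authors deposited log2 expression values from Affymetrix arrays, 1 column per sample. Per the submitters' processing notes they were made with RMA in Affymetrix Expression Console, with versions and options not given in the sources used here. RMA equalizes the arrays of 1 run and compresses changes near background. No further normalization was applied. Of 35557 probe sets, 21789 had 1 gene symbol, 1621 several and 12147 none in the table used, and 336 without a value on every array were left out. The set with the highest mean was kept per gene, which left 19937 genes.

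Groups and replicates came from the labels. limma 3.58.1 in R 4.3.3, with an intensity trend, was fitted to the 6 standard-diet arrays for genotype and to all 12 arrays with 1 mean per group otherwise, and was tested on simulated data. Calls were made at an adjusted p under 0.05 (Benjamini-Hochberg). Permutation tests used numpy 2.4.6, with ranks from scipy 1.17.1, and figures used matplotlib 3.10.9. The separation of the sets is the lowest value of the higher set minus the highest of the lower, and 0 where they overlap.

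The 5 genes, the sets and the gene lists were chosen with earlier results of these data known. Named genes are the 5 with Arntl and Dbp, the 10 widest separations in each direction and the 3 most and 2 least alike genes among those at or above the median level, and up to 4 separated genes per list (otherwise the 2 with the widest high-fat range), without predicted, clone-named, chemosensory or small RNA genes. The other clock genes, Alb and Sirt3 were named after their values were seen. The alternatives were median centring, quantile normalization, the mean of a gene's probe sets, the replicate number as a block, other fits, a filter on dim genes, other levels for separation, and leaving out each array.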

Additional observations from a re-analysis of the deposited data

How the results depend on the processing

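Over the values as deposited, median centring, quantile normalization and the mean of probe sets, the separations on the arrays that chose the genes were 1.59 to 1.62 for Thrsp, 1.65 to 1.67 for Rgs16, -0.83 to -0.73 for Slc16a1, -0.76 to -0.54 for Cldn1 and -0.52 to -0.45 for Slc30a10. Leaving out an array can only keep or widen a separation, so it says nothing of stability. The 1130 genes apart became 2012 without the level filter and 1612 to 2858 with 1 high-fat array left out, where fewer arrays separate more easily. For genotype on the standard diet the 0 calls became 1 with all 12 arrays, 3 with the replicate block and 0 to 45 with 1 array left out, 45 without SIRT3KO replicate 3 and 2 without control replicate 2; none of the 5 genes was called in any of these. Deviations of same-numbered arrays correlated at 0.051, 0.015 and 0.288 between standard-diet genotypes and at -0.27 to 0.41 over all 18 pairs of groups, so the numbers were not taken to pair the samples. The Arntl genotype difference on that diet, 0.02, was -0.049 with median centring and -0.071 to 0.14 with 1 array left out. The r of Thrsp with Rgs16 there was -0.094 with median centring, -0.037 with quantile normalization, -0.57 with genotype means subtracted and -0.13 to 0.71 with 1 array left out. Diet calls in controls, 859 up and 336 down, became 432 and 646 with median centring, 221 and 125 with the filter, and 277 to 959 and 115 to 373 with 1 array left out. Leaving out standard-diet control 1, 2 or 3 or high-fat control 1 or 2 lowered each by over 1.5 times. In SIRT3KO, 488 up and 530 down became 213 and 218 with the filter and 162 to 577 and 198 to 709 with 1 array left out, and were lowered so without standard-diet SIRT3KO 1 or 2 or high-fat SIRT3KO 2 or 3. High-fat genotype calls were 0 to 1 in each direction with 1 array left out, 1 up without SIRT3KO 1 and 1 down without control 3. Precision is limited by 3 arrays a group, and changes of dim genes are compressed. The causes of these shifts were not tested.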

Other observations

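Another order of the high-fat livers, seen in the values of genes of the clock output and glucocorticoid lists, set control replicate 1 and SIRT3KO replicate 1 below the other 4. Lpin1, which encodes a phosphatidate phosphatase induced by fasting and glucocorticoids, read 8.27, 10.83 and 10.50 in the controls and 8.24, 10.86 and 10.54 in SIRT3KO, a separation of 2.23. Alas1, the first enzyme of heme synthesis, read 11.59, 12.94 and 12.78 in the controls and 11.27, 13.16 and 12.72 in SIRT3KO. Tsc22d3, a glucocorticoid-induced gene, read 7.65, 8.59 and 8.54 in the controls and 7.36, 8.74 and 8.44 in SIRT3KO. Fkbp5, a co-chaperone of the glucocorticoid receptor, read 8.42, 9.43 and 8.91 in the controls and 8.44, 10.16 and 9.56 in SIRT3KO. Control replicate 2 thus sat with the high livers for these genes and with the second set for Thrsp, Rgs16, Slc16a1, Cldn1 and Slc30a10. These genes were picked after their values were seen, so the order is a description and was not tested.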
